A study of Mus musculus with 6 samples.

Results

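The chemokine ligands and receptors were taken by gene symbol from an RNA-Seq comparison of aortic valves of control and caAcvr1:Nfatc1Cre mice. All genes listed under the names Ccl, Cxcl, Ccr and Cxcr with a number were counted as members. Cx3cl1, Cx3cr1, Xcl1, Xcr1, Pf4, Ppbp, Ackr2, Ackr3, Ackr4 and Darc were counted as well where present. Measured values did not enter this rule, but the members were chosen with earlier results of these data known. The rule found 61 of 23107 genes, namely 24 CC ligands, 17 CXC and other ligands, 18 receptors and 2 atypical receptors. The table lists Ackr3 under its older symbol Cxcr7 and Ackr1 under Darc, while Ackr2 and Ackr4 stand under older symbols outside the rule.

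Valve tissue was taken from outbred mice at 4 months of age, and 3 libraries were made per group. The mutants carried a Cre-activatable, constitutively active Acvr1 transgene, an activated BMP type I receptor, together with Nfatc1Cre, a Cre cassette knocked into the Nfatc1 locus. Per the methods and results of the study, this Cre recombines in the endocardium that covers the leaflets, in interstitial cells and at the junction of leaflet and wall, and recombination was not seen in cardiac or smooth muscle. The labels call the controls wild type, whereas the methods of the study also allow controls with 1 of the alleles, and which of these were sequenced is not stated. Neither the sex of the mice nor whether tissue of several mice was pooled is given, so that p-values measure the spread between these libraries. Library totals were 46180666 to 55728854 fragments in the controls and 32218343 to 53129459 in the mutants. A gene at 0 counts could therefore still be present at up to 0.0538 to 0.0931 CPM (fragments of a gene scaled to a common library size). This limit of 3 counts was taken from the library totals as they stand, whereas the CPM of genes include normalization between libraries by the TMM method. The limit covers counting error only and does not hold for genes with near-copies, whose fragments can stand under another row. Summed cardiac muscle markers of 11750 to 37720 CPM showed that the dissected tissue was not valve alone.

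Chemokines are small secreted proteins that direct the migration of leukocytes along gradients and hold them in tissues. They bind G protein-coupled receptors on the migrating cell, and CC, CXC, CX3C and XC families are told apart by the spacing of conserved cysteines. Atypical receptors bind the same ligands without G protein signaling and scavenge or transport them. Many inflammatory ligands lie in gene clusters and are induced through NF-kB or interferon, whereas homeostatic ligands such as Cxcl12, Ccl19 and Ccl21 are made steadily by stromal and endothelial cells.

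One member, Ccl21a, belongs to a group of near-identical genes, and its own row did not hold all fragments of the group. Ccl21a, a ligand of Ccr7 that guides lymphocytes and dendritic cells, lies on the minus strand of chromosome 4 from 42772860 to 42773993 in GRCm38 (mm10), and Ccl21b lies on the plus strand from 42255767 to 42256432. Their coding sequences of 402 bases differ by T84A and C194T (the Ccl21a base, the position counted from the A of the start codon, the Ccl21b base). Coding sequences of Gm13304, Gm10591 and Gm21541 on the same chromosome carry the same 2 differences. The stretch from base 52 to base 224 is shown because it holds both coding positions at which Ccl21a differs from these copies, which are in capitals. Untranslated bases were not compared, and the sequence of Gm1987 was not compared either.
Ccl21a: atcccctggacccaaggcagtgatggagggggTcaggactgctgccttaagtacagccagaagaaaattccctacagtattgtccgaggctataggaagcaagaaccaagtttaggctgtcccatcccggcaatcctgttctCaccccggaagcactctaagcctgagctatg
Ccl21b: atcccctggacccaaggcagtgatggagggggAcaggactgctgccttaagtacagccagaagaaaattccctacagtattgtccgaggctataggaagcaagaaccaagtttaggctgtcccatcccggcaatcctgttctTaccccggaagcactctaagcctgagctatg
The remaining coding bases are the same in all of these copies.

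In the deposited counts Ccl21a held 490.06, 554.198 and 1.43977 fragments in the controls (replicates 1, 2 and 3, here and in every list of 3 values) and 1192.85, 342.807 and 400.119 in the mutants. Gm1987, the other copy that received counts, held 2991.94, 749.802 and 1772.56 fragments in the controls and 1193.15, 595.193 and 0.880986 in the mutants. Neither row was a whole number in any library, but their sums were whole within 0.01 in 6 of 6 libraries, at 3482, 1304 and 1774 in the controls and 2386, 938 and 401 in the mutants. Ccl21b, Ccl21c and Gm13304 were listed at 0 in all 6 libraries. The share of the summed fragments that stood under Ccl21a was 14.1%, 42.5% and 0.0812% in the controls and 49.99%, 36.6% and 99.8% in the mutants. The split thus went almost wholly to Gm1987 in control replicate 3 and almost wholly to Ccl21a in mutant replicate 3. On its own row Ccl21a was read at 9.14, 10.96 and 0.0217 CPM in the controls and 23.0, 8.68 and 12.6 CPM in the mutants, with a log2 fold change of 1.14 (standard error 1.18), mutants against controls. That value was 0.55 without control replicate 3, 0.66 without mutant replicate 1 and 4.44 with sample weights in limma-voom. The summed copies were read at 65.0, 25.8 and 38.6 CPM in the controls and 46.1, 23.7 and 12.6 CPM in the mutants, which gave a log2 fold change of -0.65 (standard error 0.51, with an adjusted p of 0.999 by the edgeR quasi-likelihood F test). The direction of Ccl21a therefore turned with the treatment of the copies, and with the copies summed the groups overlapped. Summed markers of lymphatic endothelium, a source of Ccl21, were 430.1 to 700.9 CPM in the controls and 280.0 to 390.7 CPM in the mutants, with 5 of the 6 markers below 0 in log2 fold change, Reln and Mmrn1 lower in every mutant, and 3 (Flt4, Reln and Mmrn1) with an unadjusted p under 0.05. Prox1, which defines the cell type, was at 0.02. Their part in the Ccl21 level was not tested. The other near-copies, Ccl27b and Gm13306, were at 0 in every library, so that Ccl27a was read without such a split.

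**Figure D1:**
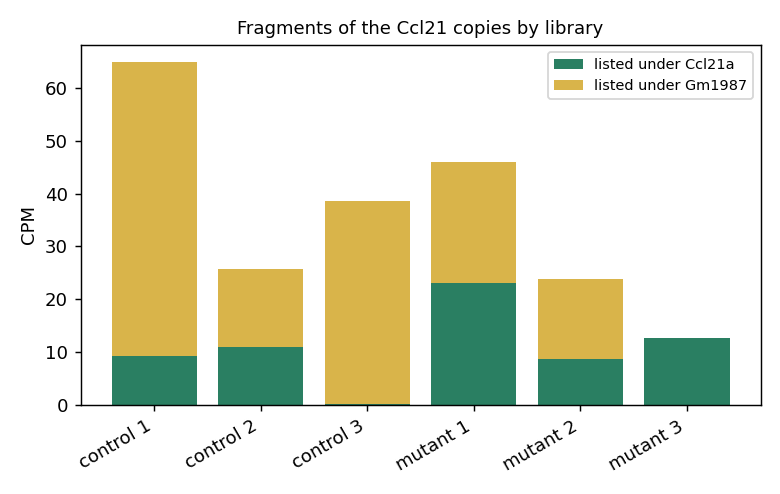
Level of the summed Ccl21 copies in each library in CPM (vertical axis), divided into the fragments listed under Ccl21a (green) and under Gm1987 (yellow). The green share runs from 0.0812% in control replicate 3 to 99.8% in mutant replicate 3, while the summed height runs from 12.6 to 65.0 CPM.

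Of the 61 members, 45 passed the filter for testing, 10 or more counts in 3 or more libraries, and 36 of these had at least 10 counts in all 6. The 16 others comprised 5 that were at 0 in every library (Ccl20, Ccl21b, Ccl21c, Ccl27b and Cxcr1) and 11 with at most 19 counts in any library (Ccl1, Ccl26, Ccl28, Ccr3, Ccr6, Ccr8, Ccr9, Cxcl3, Cxcl11, Cxcl15 and Xcl1). Levels of different genes are compared per length, as CPM per kilobase of exon averaged over the 6 libraries. Pf4, a platelet and macrophage chemokine also called platelet factor 4, had the highest such level at 101 (range over libraries 82.3 to 139). Cxcr7, an atypical receptor that scavenges Cxcl12, followed at 83.7 (67.5 to 99.8) and Ccl19, a Ccr7 ligand, at 69.3 (39.5 to 90.1). The ranges of these 3 genes overlapped. Ccl6 at 41.8, Ccl8 at 28.4, Cxcl16 at 24.3, Cxcl12 at 23.1, Cx3cl1 at 20.2, Ccl12 at 17.8 and Ccl7 at 15.9 came next, and neighbours in this order did not differ beyond their ranges. The signaling receptors were lower, led by Cx3cr1 at 3.29 (1.55 to 5.92), Ccr1 at 2.49 (1.39 to 3.87), Cxcr4 at 1.46 (0.919 to 2.08) and Ccr2 at 1.16 (0.678 to 1.56). Cxcl12, Cx3cl1 and Cxcl16 each stood, in every library, above the range of the signaling receptor that binds it, Cxcr4, Cx3cr1 and Cxcr6 (1.04) in turn.

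**Figure D2:**
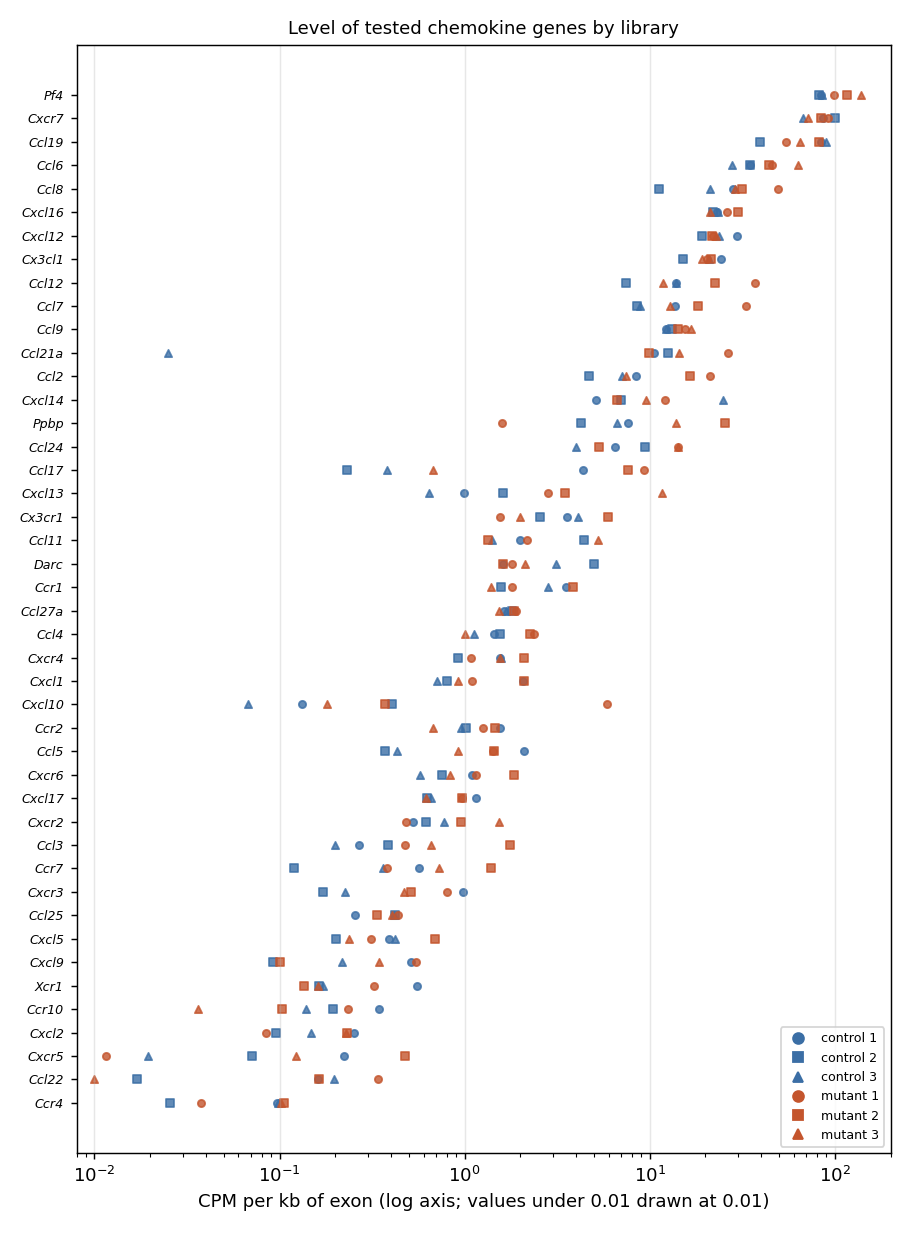
Level of the tested genes reported here in CPM per kilobase of exon (horizontal log axis) in the 3 control (blue) and 3 mutant (orange) libraries, ordered by the mean. Pf4, Cxcr7 and Ccl19 lead at 101, 83.7 and 69.3, and the points of Ccl21a, Ccl17 and Cxcl10 lie far apart between libraries.

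In edgeR, 0 members reached an adjusted p of 0.05, and no gene of the 15354 tested did (0.0%), the adjusted p of each member being 0.999. Unadjusted p-values under 0.05 were found for 9 of the 45 members (20%), all of them higher in the mutants, against 3.45% of all genes tested in either direction. Without control replicate 3 the count was 3, against 3.11% of all genes. DESeq2, which called 0.169% of all genes at an adjusted p under 0.05, called 1 member, Cxcl13 (adjusted p = 0.0329). Ccl3, Ccl6, Ccl8, Ccl9, Cxcl13 and Pf4 were higher in every mutant than in every control, which is 13.3% of the members tested against 4.04% of all genes tested. No member was lower in every mutant, against 4.83% of all genes. The log2 fold change was above 0 for 35 members and below 0 for 10, with a median of 0.305, beside a median of 0.00974 over all genes tested. CC ligands were above 0 for 16 of 17 genes (median 0.65, 6 with an unadjusted p under 0.05) and CXC and other ligands for 11 of 13 (median 0.20, 3 with such a p). Receptors were above 0 for 8 of 13 genes (median 0.23) and both atypical receptors were below 0, with no unadjusted p under 0.05 in either class.

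**Figure D3:**
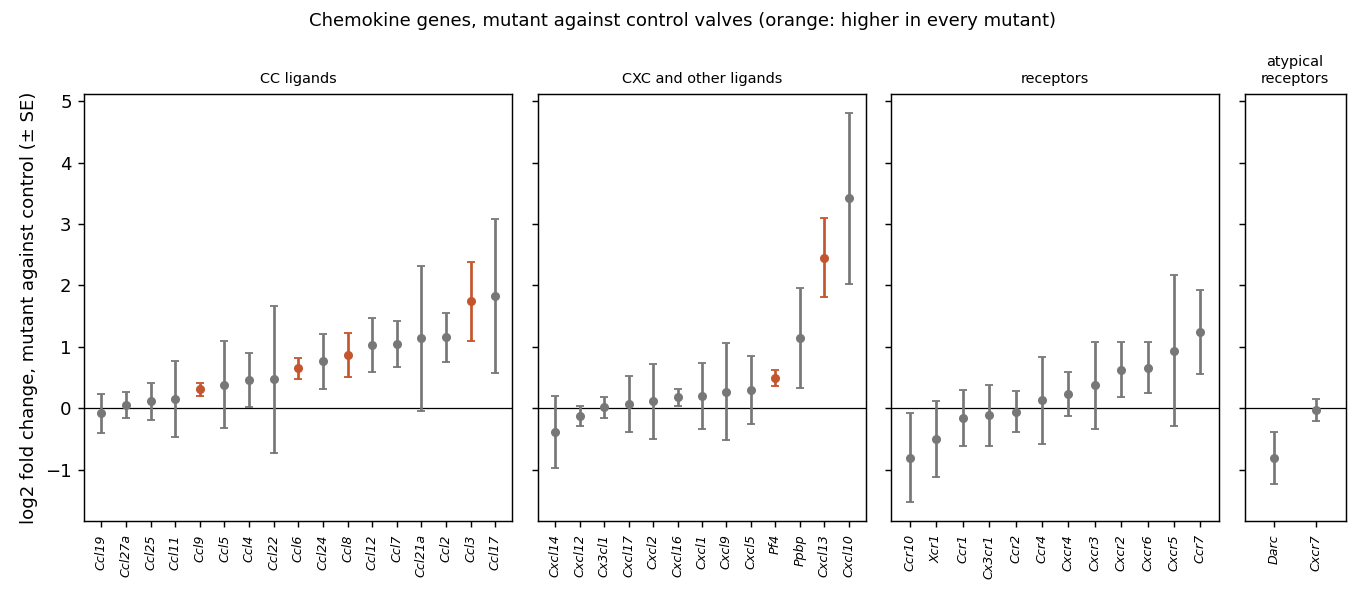
Log2 fold change of the tested genes reported here, mutants against controls (vertical axis, points with standard error bars, 3 libraries per group), by class, with the genes that were higher in every mutant in orange. Ccl19 is the CC ligand below 0, and the orange genes are Ccl9, Ccl6, Ccl8, Ccl3, Pf4 and Cxcl13.

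The monocyte-attracting ligands Ccl2, Ccl7, Ccl12 and Ccl8, which bind Ccr2 or related receptors, lie together on chromosome 11 between 82035571 and 82116799. Ccl2, the main ligand of Ccr2, was read at 9.65, 5.32 and 8.11 CPM in the controls and at 24.2, 18.8 and 8.45 CPM in the mutants. Ccl7 was read at 10.97, 6.82 and 7.11 CPM in the controls and 26.5, 14.5 and 10.3 CPM in the mutants. Ccl12 was read at 7.41, 3.98 and 7.48 CPM in the controls and 19.96, 12.1 and 6.37 CPM in the mutants. These 3 genes were highest in mutant replicate 1, next highest in mutant replicate 2 and within the control range in mutant replicate 3. Ccl8 was read at 14.4, 5.75 and 10.8 CPM in the controls and 25.2, 16.1 and 14.8 CPM in the mutants, so that its groups did not overlap, by a narrow margin. In edgeR the log2 fold changes were 1.16 for Ccl2 (standard error 0.40, unadjusted p = 0.0238) and 1.04 for Ccl7 (standard error 0.37, unadjusted p = 0.0265). For Ccl12 and Ccl8 edgeR gave 1.03 (standard error 0.44, unadjusted p = 0.0521) and 0.86 (standard error 0.36, unadjusted p = 0.0474). Without mutant replicate 1 they dropped to 0.82 for Ccl2, 0.58 for Ccl7 and 0.55 for Ccl12. Ccl11, an eosinophil attractant inside the same cluster, was read at 2.16, 4.79 and 1.52 CPM in the controls and 2.36, 1.44 and 5.68 CPM in the mutants, which overlapped widely. Ccl1, the sixth gene of the cluster, had 2 counts in mutant replicate 1 and 0 elsewhere. The receptor Ccr2 overlapped between groups, at 10.6, 6.90 and 6.48 CPM in the controls and 8.49, 9.87 and 4.58 CPM in the mutants (log2 fold change -0.06, standard error 0.33).

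The second CC cluster on chromosome 11, between 83525778 and 83664683, holds Ccl5, Ccl9, Ccl6, Ccl3 and Ccl4, several of which are ligands of Ccr1. Ccl6, a myeloid ligand found in mice but not in humans, was read at 62.4, 62.6 and 50.3 CPM in the controls and 81.9, 79.0 and 114 CPM in the mutants. Ccl9, which lies next to it, was read at 37.5, 40.2 and 37.1 CPM in the controls and 47.1, 43.5 and 51.1 CPM in the mutants. Both genes were highest in mutant replicate 3, unlike Ccl2, Ccl7, Ccl12 and Ccl8. The group means were 58.4 ± 7.04 against 91.6 ± 19.4 CPM (SD, n = 3) for Ccl6 and 38.2 ± 1.69 against 47.3 ± 3.79 CPM (SD, n = 3) for Ccl9. Their log2 fold changes were 0.65 (standard error 0.17, unadjusted p = 0.00678 from edgeR) and 0.31 (standard error 0.10, unadjusted p = 0.0197), and the exact two-sided permutation test gave for both the smallest p that 3 libraries against 3 allow, 0.1. Ccl3, a Ccr1 ligand, was sparse, with 7 to 53 counts per library, and was read at 0.205, 0.297 and 0.152 CPM in the controls and 0.367, 1.34 and 0.502 CPM in the mutants. Its log2 fold change of 1.74 (standard error 0.64, unadjusted p = 0.0306 from edgeR) became 0.97 without mutant replicate 2, which held the highest value. Ccl4 and Ccl5, attractants of T cells and monocytes, overlapped between groups, at 0.45 (standard error 0.44) for Ccl4 and 0.39 (standard error 0.72) for Ccl5 in log2 fold change. The receptor Ccr1 was read at 10.002, 4.45 and 7.96 CPM in the controls and 5.12, 11.0 and 3.92 CPM in the mutants. It was highest in mutant replicate 2 and overlapped between groups, at -0.16 (standard error 0.45) in log2 fold change.

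Pf4, an abundant product of megakaryocytes that tissue macrophages also make, was read at 60.9, 59.4 and 61.6 CPM in the controls and 71.3, 84.0 and 100.4 CPM in the mutants. The controls averaged 60.6 ± 1.15 CPM (SD, n = 3) and the mutants 85.2 ± 14.6 CPM (SD, n = 3), with a log2 fold change of 0.49 (standard error 0.13, unadjusted p = 0.00814 from edgeR). Ppbp, the other platelet chemokine, lies next to Pf4 on chromosome 5 and had a different pattern, at 8.25, 4.61 and 7.24 CPM in the controls and 1.72, 27.7 and 14.9 CPM in the mutants. It was thus highest in mutant replicate 2 and lowest in mutant replicate 1, whereas Pf4 was highest in mutant replicate 3 and in mutant replicate 1 above every control. The summed platelet and megakaryocyte markers (8 genes, none at 0 in all libraries) were 21.2, 14.5 and 23.2 CPM in the controls and 10.9, 46.1 and 30.45 CPM in the mutants, with the same highest and lowest libraries as Ppbp.

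Macrophage markers, like Ccl6, Ccl9, Ccl8 and Pf4, were higher in every mutant as a sum, and none passed an adjusted p of 0.05. The order of the libraries by this sum was that of Ccl8 within the controls. Pf4 shared the lowest library of each group with the sum, and Ccl6 and Ccl9 differed from its order in both groups. The 12 listed markers summed to 895.4, 766.7 and 844.9 CPM in the controls and 974.6, 1059 and 1053 CPM in the mutants, 11 of 12 had a log2 fold change above 0 (median 0.34), and 5 of them (Cd68, Fcgr1, C1qa, C1qb and C1qc) were higher in every mutant. None was at 0 in all libraries. In RNA of whole tissue, more cells of a type and more RNA per cell cannot be told apart. Relative to the summed macrophage markers, on a scale chosen after the values were seen, Ccl6 was at 6.97%, 8.16% and 5.95% in the controls and 8.40%, 7.46% and 10.8% in the mutants, and Pf4 at 6.80%, 7.74% and 7.29% against 7.31%, 7.94% and 9.53%. Ccl9 was at 4.19%, 5.24% and 4.39% against 4.84%, 4.11% and 4.85%, and Ccl8 at 1.60%, 0.751% and 1.28% against 2.58%, 1.52% and 1.41%. The groups overlapped for all 4 genes on this scale. Cxcl13 was then the 1 member higher in every mutant, beside 0.658% of all genes, and Cxcl12 the 1 member lower, beside 33.2% of all genes. Of 6 tested mast cell markers 5 were above 0 in log2 fold change (median 0.78) and Kit was at -0.47, with 3 higher in every mutant and overlapping sums of 48.2 to 95.3 CPM in the controls and 89.7 to 143.6 CPM in the mutants. Of 7 smooth muscle markers 6 were below 0 (median -0.88) and 3 were lower in every mutant. The part of macrophages, mast cells and smooth muscle in the ligand levels was not tested. Monocyte markers overlapped, at 417.7 to 595.7 CPM in the controls and 348.5 to 461.2 CPM in the mutants, but this sum was mostly Ace and F13a1, while Ly6c2, Chi3l3, Plac8 and Spn each stood at no more than 2.71 CPM.

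**Figure D4:**
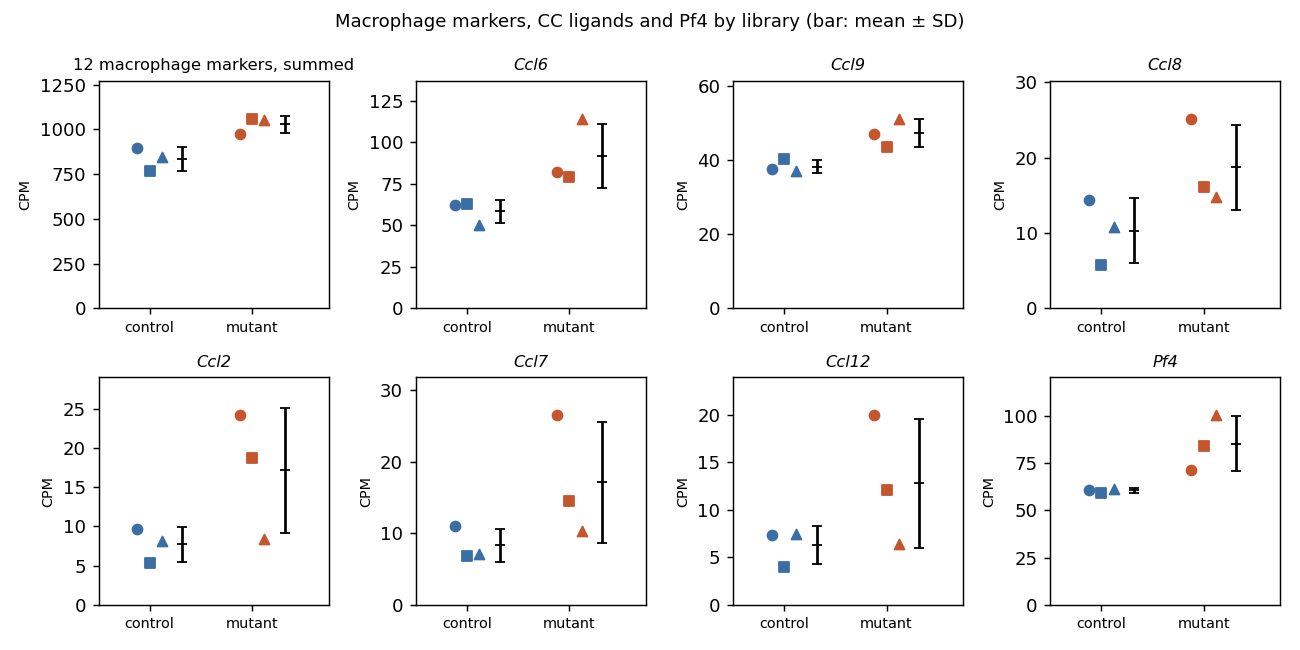
CPM (vertical axes, from 0) of the 12 summed macrophage markers, of 6 CC ligands and of Pf4 in each control (blue) and mutant (orange) library, with the mean ± SD of 3 libraries in black. The markers, Ccl6, Ccl9, Ccl8 and Pf4 are higher in every mutant, and Ccl2, Ccl7 and Ccl12 are highest in mutant replicate 1 and lie within the control range in mutant replicate 3.

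Among the CXC ligands, Cxcl13, the ligand of Cxcr5 that attracts B cells, had the smallest unadjusted p of the members. It was read at 1.14, 1.86 and 0.739 CPM in the controls and 3.26, 4.00 and 13.3 CPM in the mutants. Every mutant lay above every control, and mutant replicate 3 lay far above the other mutants. The log2 fold change was 2.45 (standard error 0.64, unadjusted p = 0.0066 from edgeR), and 1.54 without mutant replicate 3. Its receptor Cxcr5 was sparse and did not follow it, at 0.746, 0.237 and 0.0652 CPM in the controls and 0.0386, 1.59 and 0.408 CPM in the mutants. Cxcr5 instead stood in the same order over the 6 libraries as the B cell marker Ms4a1, an order noticed after the values were seen, which was read at 2.44, 1.31 and 0.348 CPM in the controls and 0.270, 6.10 and 2.42 CPM in the mutants. The plasma cell gene Igj (J chain) was higher in every mutant, at 0.578, 0.218 and 0.478 CPM in the controls and 3.17, 5.92 and 4.05 CPM in the mutants. Of the 8 tested B and plasma cell markers 7 had a log2 fold change above 0 (median 0.90), among them Cd79a at 1.57, Ms4a1 at 1.09 and Cd79b at 1.01, and Igj was the 1 whose groups did not overlap. The summed level of these markers, 258.4 to 337.5 CPM in the controls and 278.7 to 324.8 CPM in the mutants, was almost wholly that of the widely expressed Xbp1 (254.19 to 331.22 CPM). Cr2, a marker of the follicular dendritic cells that make Cxcl13 in lymphoid organs, was at most 0.734 CPM, and at 0.0628 CPM in mutant replicate 3. The part of these cells in the Cxcl13 level was not tested.

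Cxcl10, an interferon-inducible ligand of Cxcr3, was read at 0.299, 0.910 and 0.152 CPM in the controls and 13.3, 0.835 and 0.408 CPM in the mutants. Mutant replicate 1 alone stood apart, and both other mutants lay within the control range. The log2 fold change of 3.42 (standard error 1.39, unadjusted p = 0.044 from edgeR) was therefore set by 1 library and was 0.46 without it, and the exact two-sided permutation p was 0.3. DESeq2 gave no adjusted p for this gene. Irf7 and Stat2, factors of the interferon response, were also highest in mutant replicate 1, at 66.8 and 68.3 CPM, against 15.3 to 23.5 and 32.7 to 42.1 CPM in the 5 other libraries. Cxcl9, which lies next to Cxcl10 and shares its receptor, was read at 1.55, 0.277 and 0.652 CPM in the controls and 1.64, 0.304 and 1.04 CPM in the mutants and did not stand apart in mutant replicate 1. The receptor Cxcr3 was read at 1.70, 0.297 and 0.391 CPM in the controls and 1.39, 0.885 and 0.816 CPM in the mutants.

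The 250 bases before the RefSeq start of Cxcl10 (chr5:92348890-92349139, minus strand, GRCm38.p6) and of Cxcl13 (chr5:95956689-95956938, plus strand) are shown because these ligands had the largest log2 fold changes of the members. Capitals mark an ISRE core (GAAA, any 2 bases and GAAA, the interferon-response element), kB sites (GGGA, any 4 bases and CC, bound by NF-kB) and a TATA box (TATAAA), searched on both strands.
Cxcl10: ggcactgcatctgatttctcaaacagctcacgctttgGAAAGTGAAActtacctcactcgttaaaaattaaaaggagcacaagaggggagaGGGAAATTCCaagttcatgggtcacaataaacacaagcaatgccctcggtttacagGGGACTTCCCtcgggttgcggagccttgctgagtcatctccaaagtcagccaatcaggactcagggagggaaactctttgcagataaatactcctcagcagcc
Cxcl13: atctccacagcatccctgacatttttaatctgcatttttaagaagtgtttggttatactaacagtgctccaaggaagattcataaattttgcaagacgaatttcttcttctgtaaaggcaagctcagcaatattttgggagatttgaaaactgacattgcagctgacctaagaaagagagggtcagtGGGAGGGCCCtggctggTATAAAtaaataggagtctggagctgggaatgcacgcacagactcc
The Cxcl10 promoter held 1 ISRE core and 2 kB sites, and the Cxcl13 promoter held 1 kB site and 1 TATA box. RefSeq promoters were matched for 45 of the 61 members, with 52 start sites. An ISRE core was found in 3 of these 52 windows (5.77%) and in 2.98% of all 32851 promoters of the same length, a kB site in 19 windows (36.5%) and in 17.6% of all promoters, and a TATA box in 14 windows (26.9%) and in 12.4% of all promoters. These matches are letters in a window and not measured binding.

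The homeostatic and endothelial ligands were abundant, and their groups overlapped. Cxcl12, which retains leukocytes and progenitor cells through Cxcr4, was read at 242, 156 and 193 CPM in the controls and 179, 177 and 186 CPM in the mutants (log2 fold change -0.13, standard error 0.16). Its receptors overlapped as well, with 2.80, 1.66 and 2.83 CPM in the controls and 1.97, 3.77 and 2.83 CPM in the mutants for Cxcr4, and 290, 334 and 226 CPM against 309, 282 and 240 CPM for Cxcr7 (log2 fold change -0.03, standard error 0.18). Cx3cl1, or fractalkine, a membrane-bound ligand of endothelial cells, was read at 95.5, 59.2 and 82.2 CPM in the controls and 79.7, 84.5 and 74.9 CPM in the mutants (log2 fold change 0.01, standard error 0.17). Its receptor Cx3cr1, found on resident macrophages and patrolling monocytes, was read at 16.1, 11.5 and 18.5 CPM in the controls and 6.97, 26.7 and 8.98 CPM in the mutants. The mutants thus lay both above and below every control, and the log2 fold change of -0.12 (standard error 0.50) became -0.95 without mutant replicate 2. Cxcl16, a transmembrane ligand of Cxcr6, was read at 69.9, 66.2 and 70.9 CPM in the controls and 79.1, 90.3 and 64.2 CPM in the mutants (log2 fold change 0.17, standard error 0.14, and 0.055 without mutant replicate 2 or 0.30 without mutant replicate 3). Cxcr6, found on T cells and NK cells, was read at 2.11, 1.46 and 1.11 CPM in the controls and 2.22, 3.57 and 1.60 CPM in the mutants, and both genes were highest in mutant replicate 2.

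Ccl19, which shares Ccr7 with Ccl21, was read at 73.1, 34.2 and 78.1 CPM in the controls and 47.4, 71.2 and 56.3 CPM in the mutants (log2 fold change -0.09, standard error 0.31). Control replicate 2 was the lowest and the groups overlapped. Ccr7, carried by naive T cells and mature dendritic cells, was read at 1.12, 0.237 and 0.718 CPM in the controls and 0.753, 2.73 and 1.44 CPM in the mutants (log2 fold change 1.24, standard error 0.69, the largest among the receptors). All 10 T cell markers listed had a log2 fold change above 0 (median 0.99), 4 of them were higher in every mutant, and their sum was 5.52 to 12.9 CPM in the controls and 12.1 to 21.7 CPM in the mutants, highest in mutant replicate 2 as Ccr7 was. Of 8 dendritic cell markers 1 was above 0 and 7 were below (median -0.13). Their sum overlapped between groups, at 73.5 to 90.1 CPM in the controls and 53.1 to 91.3 CPM in the mutants. Thymic tissue, which lies near the great vessels, makes Ccl19, Ccl21 and Ccl25. Of its 8 listed markers Foxn1, Rag1 and Rag2 were at 0 in every library, whereas Psmb11, of thymic epithelium, had 19 to 38 counts per library and Ptcra 2 to 12, and the part of such tissue in the ligand levels was not tested. Ccl17, a ligand of Ccr4 made by dendritic cells, was read at 2.24, 0.119 and 0.196 CPM in the controls and 4.81, 3.92 and 0.345 CPM in the mutants. It was high in 3 libraries and low in the other 3, with 1 control among the high and 1 mutant among the low, so that its log2 fold change of 1.82 (standard error 1.25) was 1.32 with control replicate 2 left out and 4.25 with control replicate 1 left out. Ccl22, the neighbouring ligand of the same receptor, had 41 counts in mutant replicate 1 and 0 in mutant replicate 3, at most 0.792 CPM.

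Darc, an atypical receptor of red blood cells and venular endothelium, was read at 2.26, 7.04 and 4.39 CPM in the controls and 2.55, 2.28 and 2.98 CPM in the mutants. The mutants lay close together at the lower end of the control range, with a log2 fold change of -0.81 (standard error 0.42, unadjusted p = 0.0953 from edgeR), and -0.35 without control replicate 2. Red blood cell markers summed to 8855, 2365 and 3279 CPM in the controls and 1109, 7577 and 4483 CPM in the mutants. Cxcl14, an epithelial and fibroblast ligand, was read at 9.40, 12.8 and 45.5 CPM in the controls and 22.1, 12.2 and 17.4 CPM in the mutants, with control replicate 3 above all other libraries. The neutrophil receptor Cxcr2 was read at 1.60, 1.88 and 2.35 CPM in the controls and 1.47, 2.91 and 4.68 CPM in the mutants, and of its ligands Cxcl1, Cxcl2 and Cxcl5 stood at no more than 3.95 CPM in any library, whereas Ppbp, which gives rise to another Cxcr2 ligand, reached 27.7 CPM. Ppbp, Cxcl9, Cxcl14, Ccl4, Ccl5, Ccl11, Ccl22, the Cxcr2 ligands, the receptors other than Ccr1, Cx3cr1, Cxcr7 and Darc, and the single marker genes were picked for description after their values were seen.

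Most members varied more between libraries than the typical gene. The median SD of log2 CPM over the 6 libraries, controls and mutants together, was 0.66 for the 45 members and 0.24 for all genes tested. A difference between the groups therefore counts as spread, and the levels of the genes were not matched. Ccl27a, Cxcl16, Ccl9, Cxcl12, Cxcr7 and Cx3cl1 were the 6 members with less spread than most genes. Only 13 of the 15354 genes (0.0847%) had a larger spread than Ccl21a on its own row, and 29, 31 and 130 genes exceeded Cxcl10, Ccl17 and Cxcl13. The high libraries differed by gene. Mutant replicate 2 was the highest library for 13 members, or 28.9% against 16% of all genes tested (among them Ccr1, Ccr7, Cx3cr1, Cxcr5, Cxcr6 and Ppbp), mutant replicate 1 for 12, or 26.7% against 19.5% (among them Ccl2, Ccl7, Ccl8, Ccl12, Ccl17 and Cxcl10) and control replicate 1 for 9, or 20% against 12.9%. Control replicate 2 was the lowest library for 16 members, or 35.6% against 24.9% of all genes tested, and control replicate 3 for 11, or 24.4% against 11.2%. In control replicate 2 mesothelium and epicardium markers summed to 1259 CPM, against 119 to 543.3 CPM elsewhere. Adipocyte markers summed to 1399 CPM there, against 397.3 to 1066 CPM elsewhere. All 6 and all 7 of these markers were below 0 in log2 fold change. The part of such tissue in the member levels was not tested. The median log2 fold change of the members was lowest, at 0.15, without control replicate 2 and highest, at 0.51, without control replicate 1, and it was 0.35 without control replicate 3.

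**Figure D5:**
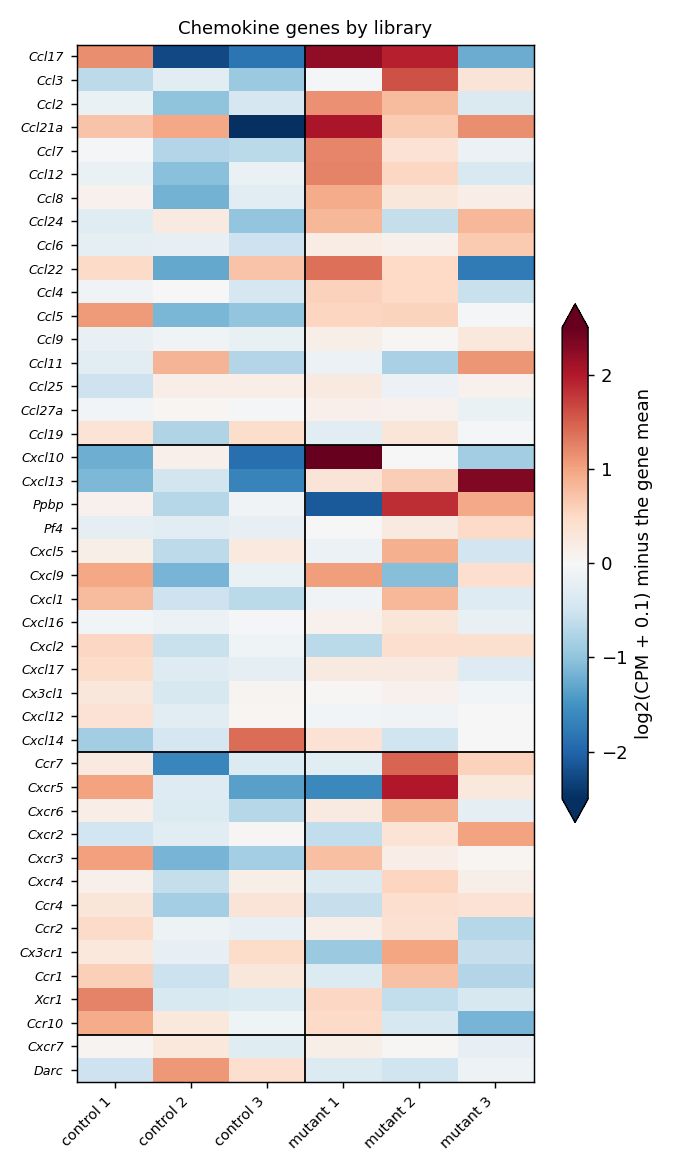
Log2(CPM + 0.1) of the tested genes reported here minus the mean of each gene over the 6 libraries (colour, red above the mean), with control and mutant libraries in columns and the classes separated by black lines. Mutant replicate 1 is red for Ccl2, Ccl7, Ccl8, Ccl12, Ccl17 and Cxcl10, mutant replicate 2 for most receptors, and mutant replicate 3 most of all for Cxcl13.

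Genes that act with the chemokines were read from 6 lists, which cover G protein and kinase signaling, chemotaxis and the cytoskeleton, receptor desensitization, ligand processing and presentation, NF-kB and interferon inducers, and related receptors (the last of which also holds Cxcr7), with 115 genes tested. Log2 fold changes were above 0 for 16 of 31 genes of receptor signaling (median 0.0030), 18 of 24 of chemotaxis (0.037), 9 of 14 of desensitization (0.094), 5 of 12 of processing and presentation (-0.063), 10 of 22 inducers (-0.0083) and 5 of 12 related receptors (-0.026). Over all lists 63 were above 0 and 52 below, and no gene had an unadjusted p under 0.05 in edgeR or an adjusted p under 0.05 in DESeq2. In every mutant 2 genes (Rac2 and Cmtm3) were higher and 3 (Tiam1, Bcar1 and Rela) were lower than in every control, both below the shares of 4.04% and 4.83% over all genes, and these genes were named after their values were seen. The smallest p-values were those of Tiam1, an activator of Rac in migrating cells (log2 fold change -0.48, standard error 0.21), and of Bcar1, an adhesion scaffold (-0.23, standard error 0.10), both lower in every mutant. Stat2 stood first in the signaling list at 0.41 (standard error 0.22), Irf7, of the inducer list, was at 0.96 (standard error 0.52), and Sdc1, a proteoglycan that holds chemokines at the cell surface, was at -0.55 (standard error 0.27). The groups overlapped for Stat2, Irf7 and Sdc1.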

How the data were processed

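Aortic valve RNA of 3 control and 3 mutant samples was sequenced on an Illumina HiSeq. The authors aligned reads to mm10 and quantified genes with Cufflinks and Cuffdiff 2.1.1, per the submitters' processing notes. The deposited values are estimated counts of fragments per gene, not scaled for depth, of which 1.66% to 1.87% per library were not whole and were rounded. The 15354 genes that reached 10 counts in 3 or more libraries were tested in R 4.3.3 with edgeR 4.0.16 (TMM, quasi-likelihood F test, two-sided, no covariates, Benjamini-Hochberg adjustment over all genes tested). Standard errors were computed from the log2 fold change and its F statistic. On simulated data of 15354 genes for this comparison, 37% of genes changed by a log2 fold change of 1 and 84% of those changed by 2 were recovered. DESeq2 1.42.0, limma 3.58.1 (voom with sample weights), other filters and normalizations, summed gene copies, a replicate block and leaving out each library were the alternatives. Lengths were taken from GENCODE for GRCm38, which matched 60 of the 61 members.

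Named members are the 4 highest per length among CC ligands, among CXC and other ligands, and among receptors with the atypical receptors included, those with an unadjusted p under 0.05 or groups that did not overlap, those with at least 100 counts in a library and a 20-fold range between libraries, and the listed near-copies. In each pathway list the 2 smallest p-values were considered. Members, marker lists and pathway lists were chosen with earlier results of these data known. Some genes that enter the counts are not reported here by name.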

Additional observations from a re-analysis of the deposited data

How the results depend on the processing

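The count of members with an adjusted p under 0.05 was 0 in edgeR and in limma-voom under all alternatives and 1 in DESeq2 (Cxcl13, log2 fold change 2.46). With the replicate number as a replicate block, 8 members had an unadjusted p under 0.05 and the median log2 fold change was 0.303, with Ccl21a at 1.88 and Cxcl10 at 2.19. Deviations of same-numbered libraries correlated at 0.373, 0.171 and 0.0194, and those of differently numbered libraries at -0.364 to 0.237. The main fit did not take the numbers as pairs, and whether they mark pairs was not tested. Leaving out single libraries gave 3 (without control replicate 3) to 11 members with an unadjusted p under 0.05, 6 to 15 higher in every mutant (15 without control replicate 1, 14 without mutant replicate 3, 10 without mutant replicate 1) and 0 to 2 lower. Fewer libraries per group let more genes separate by construction, and over all genes tested 2.83% to 4.12% had such a p, 7.89% to 9.83% were higher and 8.47% to 10.4% lower at these settings. Relative to the macrophage markers, added after seeing the data, 1 member was higher and 1 lower. Without a filter the median was 0.418, and with a mean count of at least 100 it was 0.233. Some small log2 fold changes turned in sign between libraries left out, with ranges of -0.37 to 0.12 for Ccl19, -0.72 to 0.10 for Ccr1, -0.15 to 0.17 for Cx3cl1, -0.95 to 0.21 for Cx3cr1, -0.27 to 0.048 for Cxcl12 and -0.17 to 0.11 for Cxcr7. With sample weights in limma-voom, Cx3cl1 was at -0.072 and Cxcr7 at 0.040, and with the copies summed Ccl21a was at -0.65. The cause of these turns was not tested, other than for Ccl21a, where the sum itself makes the change. Of the values recomputed, 299 kept their direction and side of the threshold or stayed within the limits set for unchanged values, 16 moved beyond them, 16 turned in sign and 1 passed the threshold anew. Members under about 10 counts could not be compared at this depth.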
